A study of Mus musculus with 686 samples.

Results

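Brown adipose tissue of the mice that came back alive from the International Space Station was examined here by small RNA sequencing. Its libraries were the samples of the brown fat in the live-return experiment, taken by tissue, arm and experiment in the sample names, and they numbered 30 of the 686 libraries of the series. Mice of the Flight arm (FL) spent 39.5 days on the station and were killed on Earth 2 to 4 days after splashdown. The Habitat Ground Control (HGC) lived in flight hardware at the flight density, with temperature, humidity and carbon dioxide matched to the station, and was also held in the confined housing of the return. The Vivarium Ground Control (VGC) lived in standard cages. All 3 arms were female BALB/cAnNTac mice fed the NASA Nutrient Food Bar, with 10 libraries in each arm, 5 from mice of 3 months and 5 from mice of 8 months. Mold grew on the bars of FL and HGC mice, and the rough sea after splashdown had no counterpart on the ground, so neither can be told apart from the rest of an arm's exposure. Comparison of FL with HGC addresses flight against housing of the same kind, and comparison of FL with VGC addresses flight together with that housing. Both comparisons use the same FL libraries and are therefore not independent of each other.

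Brown fat is the heat-producing fat depot, whose cells are rich in mitochondria and uncouple respiration from ATP synthesis through UCP1. Several microRNAs (miRNAs) shape it. The miR-193b and miR-365 cluster favours brown over muscle fate, miR-378a is encoded inside the gene of the mitochondrial coactivator PGC-1beta, and miR-133 holds back the brown fat regulator PRDM16. Small RNA libraries of tissues also hold pieces of longer RNAs. Cleavage of tRNAs in the anticodon loop by angiogenin and other nucleases gives long tRNA fragments, which increase under several kinds of stress, and glycine, glutamate and valine tRNAs are frequent sources of such pieces in mouse tissues. The tables count reads per tRNA gene and do not say which piece of the tRNA a read covered.

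The mature miRNAs that define the tissue, and those on which the miRNA comparisons below turned, are given 5′ to 3′ from RefSeq on mouse build GRCm38.p6, with the seed (bases 2 to 8) in capitals. Of the 84 miRNAs looked up 70 had an entry, and miR-378a-3p and miR-124-3p are named only. The brown fat marker miR-193b-3p lies on the forward strand at chr16:13449570-13449591, in the same cluster as a copy of miR-365-3p at chr16:13453895-13453916. Its relative miR-193a-3p shares the seed from another chromosome, at chr11:79712009-79712030.
miR-193b-3p: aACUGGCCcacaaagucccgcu
miR-193a-3p: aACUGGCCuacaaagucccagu
miR-365-3p: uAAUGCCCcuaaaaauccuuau
The liver, gut and kidney miRNAs miR-192-5p (chr19:6264857-6264877, forward strand) and miR-194-5p (its copy at chr19:6264658-6264679) are encoded next to each other and led the list of miRNAs higher in FL.
miR-192-5p: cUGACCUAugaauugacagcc
miR-194-5p: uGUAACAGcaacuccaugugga
The other called miRNAs with the smallest p are shown for reference, and none of their seeds is shared within this set.
miR-192-3p: cUGCCAAUuccauaggucacag
miR-101b-3p: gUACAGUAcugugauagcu
miR-3473e: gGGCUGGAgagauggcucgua
miR-5126: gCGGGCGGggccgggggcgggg
miR-3099-3p: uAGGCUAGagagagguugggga
miR-668-3p: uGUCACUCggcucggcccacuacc
The MIR-17 family, which drives proliferation in many cell types, has members with the same seed, and 3 of those are shown because they were called together.
miR-17-5p: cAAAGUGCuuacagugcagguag
miR-20a-5p: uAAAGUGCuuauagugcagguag
miR-106a-5p: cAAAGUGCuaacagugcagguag

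Some libraries did not carry the profile of brown fat. By correlation over 730 miRNAs with a median library of every tissue (13 in the series), 7 of the 30 libraries were closest to a tissue other than brown fat: FL 2 to spleen, FL 11 to kidney, FL 12 to liver, HGC 12 to brain, VGC 1 and VGC 3 to pancreas and VGC 5 to thymus (the number is that of the mouse). All 7 came from 11 sequencing pools in which many libraries of the series carried the profile of a tissue other than their label, a choice made from the profiles without regard to arm. Those pools held 9 brown fat libraries, the others being FL 16 and VGC 12. The correlations behind the assignments were uneven, at r = 0.950 for FL 12 with liver but 0.373 for FL 11 with kidney, against 0.295 with brown fat. VGC 5 and VGC 3 stood at 0.419 and 0.427 with their closest tissue. Libraries closest to brown fat could be as low, at 0.404 for VGC 2 and 0.439 for FL 16. The main results are given with all 30 libraries and again without the 11 pools, which leaves 6 FL, 9 HGC and 6 VGC libraries. Depth over 7 RNA classes (M stands for 1000000 counts) ran from 30.0 M to 93.2 M, with medians of 42.1 M in FL, 48.1 M in HGC and 61.8 M in VGC, and miRNAs took 1.09 M to 8.68 M of them.

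Brown fat markers were abundant in the libraries with the brown fat profile. List levels were summed in counts per 1000000 miRNA counts (CPM), with no further scaling between libraries. For the 3 brown fat markers miR-193b-3p, miR-365-3p and miR-378a-3p the sum had a lowest, median and highest value of 20226, 200294 and 347522 in FL, 113644, 232283 and 351592 in HGC and 71321, 187895 and 369924 in VGC. Without the 11 pools the lowest values were 188545, 113644 and 140128, and the ranges of the arms overlapped. Among the 7 libraries closest to another tissue, FL 2 and FL 12 held 22132 and 20226 CPM of these markers, whereas FL 11 and HGC 12 still held 124853 and 149366 CPM. Muscle miRNAs were also high in most libraries, with medians of 105426 CPM in FL, 132272 CPM in HGC and 88232 CPM in VGC. Markers of other tissues were highest in single libraries: the hepatocyte miRNA miR-122-5p and the kidney and gut list in FL 12 (287175 and 108302 CPM), the brain list in HGC 12 (59771 CPM), and the white blood cell and red cell lists in FL 2 (62781 and 190428 CPM). Libraries outside the 11 pools held such markers as well, with the white blood cell list at 47381 CPM in VGC 2 and 21307 CPM in VGC 13 and the liver list at 38049 CPM in VGC 4, so the fits without the pools still contain them. The red cell list had medians of 24376 CPM in FL, 17710.4 CPM in HGC and 25980 CPM in VGC, and in HGC it was highest in HGC 16 (65865 CPM), and its part in the results was not tested. In bulk tissue, fewer cells of a type and less RNA per cell cannot be told apart.

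**Figure D1:**
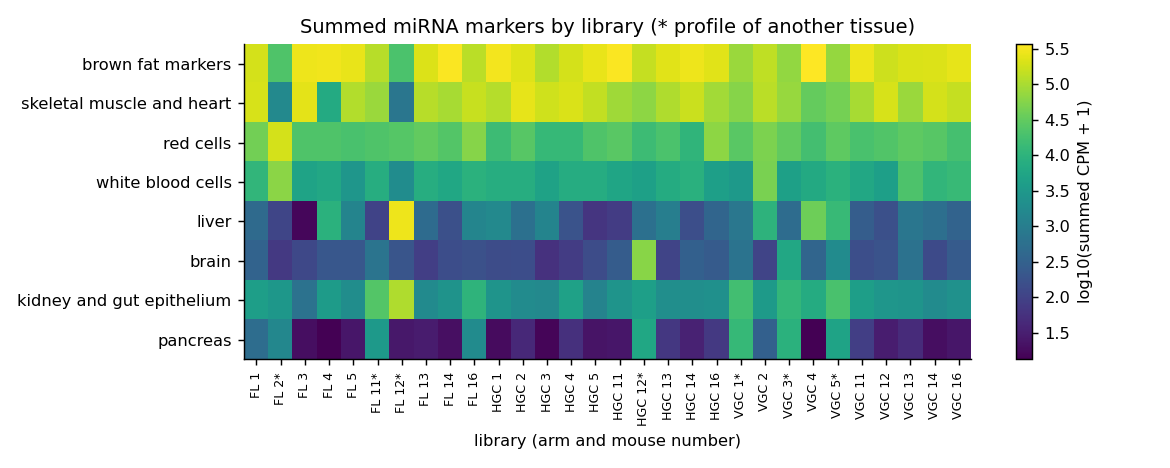
Summed level of each list of tissue markers (rows) in each of the 30 brown fat libraries (columns, by arm), as log10 of the summed CPM + 1 over miRNA counts. Brown fat and muscle lists are high in most libraries, and lists of other tissues are highest in single libraries, such as liver in FL 12 (287175 CPM), brain in HGC 12 (59771 CPM) and red cells in FL 2 (190428 CPM).

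Among the 7 class shares, that of tRNA differed most in points between FL and either control. Reads assigned to tRNA genes made up 24.9% ± 9.13 (SD, n = 10) of all counts in FL, 46.4% ± 11.5 (n = 10) in HGC and 42.1% ± 12.1 (n = 10) in VGC. The lowest, median and highest libraries stood at 6.52%, 24.3% and 36.6% in FL, at 31.4%, 44.9% and 67.2% in HGC, and at 26.0%, 40.3% and 64.5% in VGC. All 10 FL libraries were below the HGC mean and below the VGC mean, 7 were below the lowest HGC library and 6 below the lowest VGC library, and the ranges overlapped. FL was lower than HGC by 21.5 percentage points (SE 4.64, two-sided permutation test, adjusted p = 0.0020 over 14 tests of 7 classes in both comparisons) and lower than VGC by 17.1 points (SE 4.79, adjusted p = 0.0072). The p-values measure the spread between these libraries, 7 of which had another tissue's profile, and not that of brown fat between mice alone.

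Without the 11 pools the tRNA share in FL was 27.1% ± 7.05 (n = 6), against 47.4% ± 11.6 in HGC (n = 9) and 35.6% ± 9.21 in VGC (n = 6). FL then remained lower than HGC by 20.3 points (exact permutation test, adjusted p = 0.0392), with 6 of 6 FL libraries below the HGC mean and 4 below the lowest HGC library. Against VGC the difference was -8.50 points and did not pass the test (exact permutation test, p = 0.0909, adjusted p = 0.141). The habitat and vivarium controls themselves differed by 4.30 points (HGC minus VGC, permutation test, p = 0.421), and by 11.8 points without the pools (exact permutation test, p = 0.0589). With all libraries, FL was lower than HGC within each of the 5 plates that held both arms, by 5.35 to 33.6 points. Within the 3 plates shared with VGC it was lower by 9.26 to 48.5 points, with 1 to 4 libraries an arm on a plate. The only HGC library on plate 4 was HGC 12. On plate 7 the FL libraries included FL 2 and FL 12, and the only VGC library was VGC 12, from a doubted pool. In the tables of brown fat from the mice killed in orbit, another experiment of the series, the tRNA share was 48.7% ± 23.7 in FL, 54.4% ± 18.7 in HGC and 55.1% ± 10.2 in VGC (n = 10 each, not tested).

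**Figure D2:**
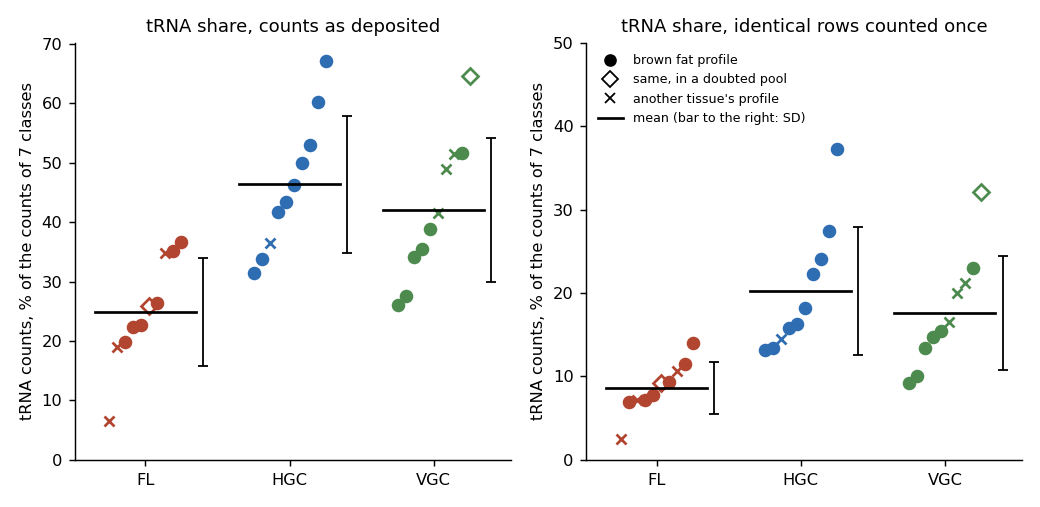
Percentage of each library's counts assigned to tRNA genes (y) in FL, HGC and VGC (x). Filled circles are libraries with the brown fat profile, open diamonds those with that profile in a doubted pool, crosses those with another tissue's profile, and lines and bars the mean and SD. FL libraries lie between 6.52% and 36.6%, and the lowest HGC library at 31.4%.

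Many tRNA genes have the same mature sequence, and their rows in the table hold identical counts in every library. Of the 408 tRNA rows 224 were distinct, and counting each set of identical rows once removed 80.5% of the tRNA counts. Counted this way the tRNA share was lower in FL than in HGC by 11.6 points (permutation test, adjusted p = 0.0001) and lower than in VGC by 8.98 points (adjusted p = 0.0020). These differences were -11.4 points (exact permutation test, adjusted p = 0.0336) and -4.90 points (exact permutation test, adjusted p = 0.133) without the 11 pools. The direction against HGC therefore did not rest on the repeated rows, whereas the size in points did.

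The difference in the tRNA share was divided by isotype, the amino acid a tRNA charges. Reads of glutamate tRNAs made up 12.5% of all counts in FL, 23.2% in HGC and 22.3% in VGC, and this isotype alone held 49.9% of the FL minus HGC difference. Valine tRNAs held 26.6% of it and glycine tRNAs 14.6%, so that these 3 isotypes together accounted for 91.1% of the difference from HGC and 92.7% of that from VGC. The corresponding values were 90.3% and 91.4% without the 11 pools. The 3 isotypes were also the most abundant in every arm, at 47.0%, 21.0% and 19.4% of the tRNA counts in FL and 50.0%, 23.7% and 16.3% in HGC. Together they held 89.8% of the mean tRNA level in HGC, close to their part of the difference. With identical rows counted once the parts of glutamate, valine and glycine in the difference from HGC were 28.3%, 36.9% and 21.5% and in that from VGC 35.1%, 32.0% and 19.9%.

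Level of valine tRNAs in FL ran from 14300.3 through a median of 48503 to 88654 reads per 1000000 counts of all classes (rpm), and from 71173 through 103483 to 153412 rpm in HGC. Only the lowest HGC libraries overlapped the highest FL libraries. Glutamate tRNAs stood at 17989.7, 122790 and 229280 rpm in FL (lowest, median, highest), at 99893, 237223 and 301028 rpm in HGC and at 103430, 213106 and 358461 rpm in VGC, and glycine tRNAs at 16226, 44444 and 68813 rpm in FL against 41911, 77972 and 125304 rpm in HGC. For both the ranges overlapped, with the FL median beneath both control medians for glutamate.

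On the log2 scale (rpm + 1), 7 of 23 isotypes passed the permutation test between FL and HGC (30.4% of those tested, Benjamini-Hochberg over the 23). Valine tRNAs were lower by 1.17 on the log2 scale (log2 difference -1.17, SE 0.26, adjusted p = 0.0023), cysteine tRNAs differed by -1.22 (SE 0.42, adjusted p = 0.0158), glutamate by -1.09 (SE 0.37, adjusted p = 0.0231), glycine by -0.79 (SE 0.26, adjusted p = 0.0231) and lysine and initiator methionine by -0.78 and -0.93 (adjusted p = 0.0410 for each). Proline tRNAs were the exception and were higher in FL, by 0.55 (SE 0.18, adjusted p = 0.0231). Their level ran from 734 to 1235 rpm in FL with a median of 979.8 rpm, against 350.6 to 1171 rpm in HGC with a median of 720.8 rpm. The proline difference was 0.46 without the 11 pools (exact permutation test, adjusted p = 0.160), 0.51 without the libraries of another profile (adjusted p = 0.0681) and 0.23 with identical rows counted once (adjusted p = 0.425), and passed in none of these. Calls for lysine and initiator methionine were fragile: omission of any one of 13 libraries (FL 1, 2, 5, 12, 13, 14 and 16 and HGC 2, 4, 5, 11, 13 and 16) ended the lysine call, and that of any of 12 (FL 2, 3, 5, 12, 13 and 14 and HGC 2, 4, 5, 11, 13 and 16) the initiator methionine call, at adjusted p up to 0.0824. The other 5 calls, proline among them, held through every omission of 1 library. The split depends on scaling: as a share of the tRNA counts alone 12 of 23 passed, 12 higher and 0 lower in FL (9 and 0 without the 11 pools).

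Once the 11 pools were left out, valine was the only isotype that passed the test between FL and HGC (4.35% of 23, log2 difference -0.91, exact permutation test, adjusted p = 0.0276). Glutamate, cysteine, glycine, lysine and initiator methionine tRNAs stood at -0.78, -0.75, -0.81, -1.03 and -0.86 with adjusted p = 0.0574 each in the exact permutation test, with 6 of 6 FL libraries below the HGC mean. With identical rows counted once and the pools left out, 6 isotypes passed the exact permutation test, namely cysteine, glutamate, glycine, lysine, valine and initiator methionine (adjusted p from 0.0184 to 0.0260).

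Against VGC, 2 of 23 isotypes passed (8.7%). Lysine tRNAs differed by -0.68 (SE 0.17, adjusted p = 0.0414, permutation test) and valine by -0.85 (SE 0.28, adjusted p = 0.0440), while glutamate and glycine stood at -0.996 and -0.64 with adjusted p = 0.0637 and 0.0601. Lysine tRNAs ran from 1843 to 3372 rpm in FL and from 1862 to 5746 rpm in VGC. Omission of any of FL 5, FL 14, FL 16, VGC 1, VGC 4, VGC 5, VGC 11, VGC 12, VGC 13 or VGC 16 left 0 isotypes, that of FL 2 left 1, that of VGC 14 left 4 and that of FL 4 left 5. Arginine tRNAs alone passed without the 11 pools (4.35%, log2 difference -0.64, exact permutation test, adjusted p = 0.0498), at 134 to 174 rpm in the 6 FL libraries and 178 to 386 rpm in the 6 VGC libraries compared. Neither lysine nor valine passed there. With identical rows counted once 9 of 23 passed against VGC, all lower in FL: cysteine, glutamate, glycine, leucine, lysine, selenocysteine, threonine, valine and initiator methionine. Counted so without the pools 1 passed, arginine, and without libraries of another profile 0 passed.

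**Figure D3:**
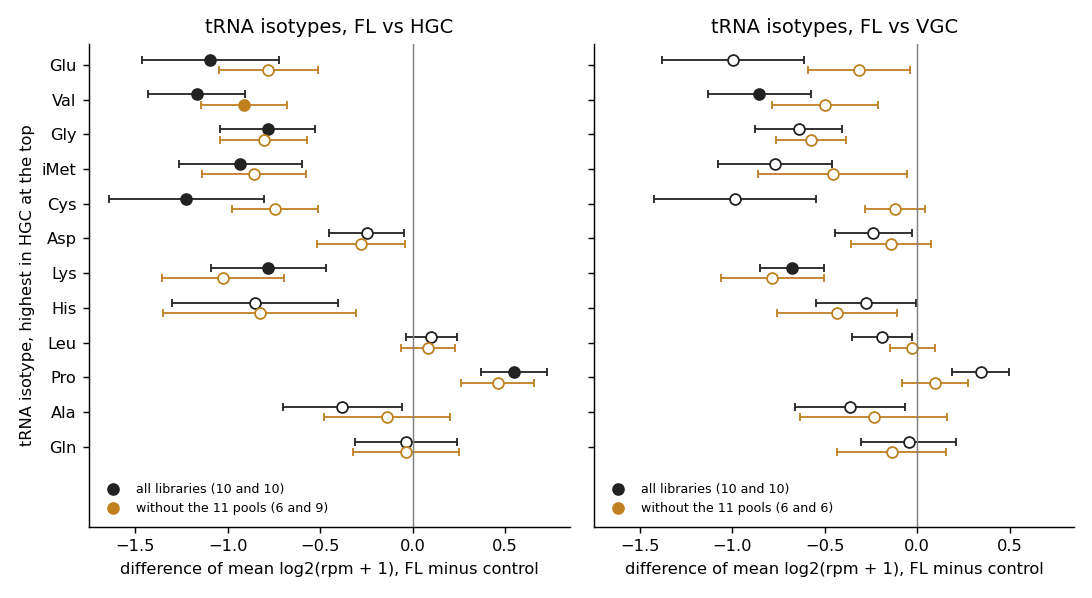
Log2 difference in rpm (x) of each tRNA isotype (rows) for FL minus HGC and FL minus VGC, with all libraries and without the 11 pools. Bars are 1 SE and filled points have an adjusted p under 0.05. Valine lies at -1.17 and proline at 0.55 in FL minus HGC.

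Within the tRNA class, single tRNA genes were compared with edgeR's quasi-likelihood test on counts scaled within the class by trimmed means (TMM). A fold change is then relative to the bulk of tRNA rows and not to the total of tRNA reads. Glycine tRNAs, with rows called lower below, made up 19.4% of the tRNA counts in FL and 16.3% in HGC. Between FL and HGC, 175 of 399 tested genes passed (43.9%), 90 higher and 85 lower in FL, and 133 of 392 passed without the 11 pools (33.9%), 55 higher and 78 lower, with 102 genes called in the same direction in both fits. Omission of FL 2 alone left 63, and with a term for plate 46 passed, 28 higher and 18 lower. The split depends on scaling: relative to all 7 classes 146 genes passed, 15 higher and 131 lower (122 without the pools, 3 higher and 119 lower), as the median over all tRNA genes moved from 0.10 to -0.37 on the log2 scale. With identical rows counted once 79 of 217 distinct rows passed (36.4%), 42 higher and 37 lower, and 42 of 212 without the pools, 16 higher and 26 lower.

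The calls were grouped by anticodon, to be read beside the 36.4% of all distinct rows that passed (42 of 217 higher and 37 lower). Among distinct rows (each identical set once, scaled within tRNA), those lower in FL were 12 of 22 Cys-GCA, 5 of 6 Val-AAC, 3 of 6 Val-CAC, 4 of 4 Gly-GCC, 3 of 4 Gly-CCC, 2 of 3 iMet-CAT and 2 of 3 Arg-CCG rows, with median log2 fold changes of -0.80, -0.98, -0.62, -0.55, -0.61, -0.68 and -0.92. Of the 6 glutamate rows 1 passed, lower in FL. Rows higher in FL were 8 of 10 Tyr-GTA, 4 of 4 Asn-GTT, 3 of 3 Arg-ACG, 5 of 7 Thr-AGT, 3 of 5 proline, 3 of 6 elongator methionine and 3 of 9 isoleucine rows, the last no larger a share than over all rows, and for the first 4 of these the median was 0.76, 0.78, 1.74 and 0.77. The same isotype could hold both directions, since among 19 arginine rows 5 were higher and 3 lower, and among 15 lysine rows 3 were higher and 1 lower. Called tyrosine and asparagine rows were all higher, as were those of threonine. With the pools left out, where 42 of 212 distinct rows passed, these included 12 of 22 Cys-GCA, 4 of 4 Gly-GCC, 2 of 5 Val-AAC and 2 of 3 Arg-CCG rows, all lower, and 8 of 10 Tyr-GTA and 2 of 4 Asn-GTT rows, all higher.

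The smallest adjusted p was found for an arginine and the proline tRNAs, which did not have the largest fold changes. Gene tRNA-Arg-CCG-2-1 ran from 4.37 through 6.43 to 7.59 CPM of the tRNA counts (here and for single RNAs below after scaling of the class by trimmed means, TMM) in FL, from 6.54 through 13.0 to 22.3 in HGC and from 4.74 through 8.02 to 11.6 in VGC. It was lower in FL than in HGC by a log2 fold change of -1.02 (SE 0.21, edgeR adjusted p = 0.00107), -1.07 without the 11 pools (adjusted p = 0.0136) and -0.58 without HGC 16 (adjusted p = 0.0187). The 4 identical rows tRNA-Pro-TGG-2-1 to tRNA-Pro-TGG-2-4 ran from 188 through 342 to 611 in FL, from 112 through 176 to 247 in HGC and from 116 through 200.4 to 269.5 in VGC, with 9 FL libraries above the highest HGC library. Their log2 fold change was 0.95 against HGC (SE 0.20, edgeR adjusted p = 0.00107, 0.72 without the pools with adjusted p = 0.0134). The rows tRNA-Pro-AGG-1-1 and its 3 copies behaved alike, at 0.87 (edgeR adjusted p = 0.00107) and 0.66 without the pools (adjusted p = 0.0134).

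Against VGC 25 of 399 tRNA genes passed in edgeR (6.27%), each higher in FL, and 0 without the 11 pools. The proline rows led these too, at 0.81 for Pro-TGG-2-1 and 0.75 for Pro-AGG-1-1 (edgeR adjusted p = 0.00852 for each), and at 0.46 and 0.43 without the pools, where neither passed. The count was 0 without any one of 16 libraries (FL 1, 2, 11, 13 and 14, HGC 2, 3, 4, 12, 13 and 14, and VGC 1, 3, 4, 5 and 16). The HGC libraries enter the fit through the scaling of the class and the estimate of spread, and without HGC 2 the median over all tRNA genes against VGC moved from 0.19 to 0.067 and Pro-TGG-2-1 from 0.81 to 0.64. It was 16 without FL 16, 13 without VGC 2, 14 without VGC 11 or VGC 12 and 39 without HGC 16. DESeq2 called 13.

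**Figure D4:**
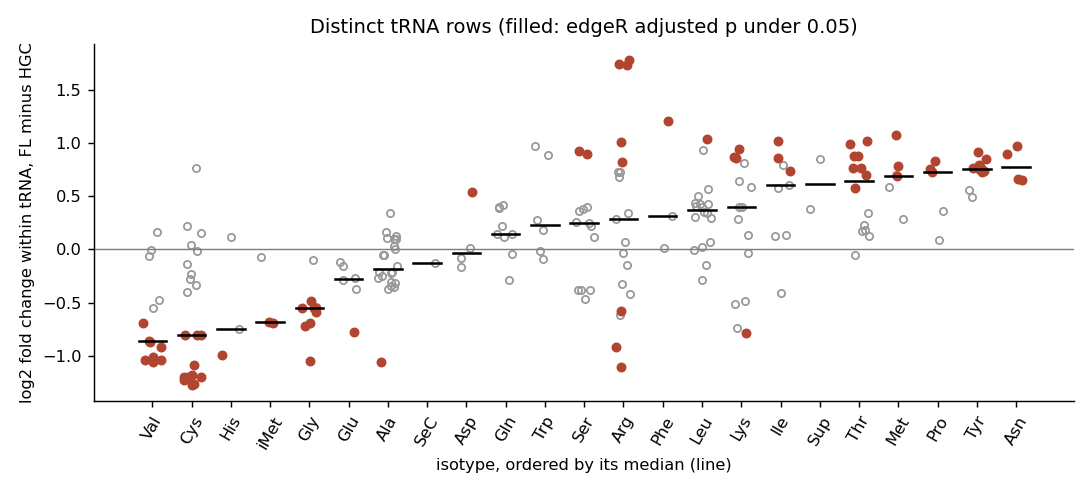
Log2 fold change FL minus HGC within the tRNA class (y) for each distinct tRNA row, grouped by isotype (x), from edgeR. Points are rows, filled where the adjusted p is under 0.05, and the short line is the isotype median. After scaling of the class by trimmed means, the medians of cysteine, glycine, valine and initiator methionine lie below 0 and those of tyrosine, asparagine and proline above 0.

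The 7 shares of a library sum to all of its counts, so the other shares are not independent of the tRNA share. Small nuclear RNA, the spliceosome's RNA component, made up 15.7% ± 7.71 of counts in FL and 8.45% ± 4.21 in HGC (difference 7.23 points, permutation test, adjusted p = 0.0310), small nucleolar RNA, which guides RNA modification, 17.6% ± 5.20 and 11.5% ± 5.12 (6.05 points, adjusted p = 0.0361), and rRNA 16.4% ± 3.46 and 12.6% ± 3.65 (3.78 points, adjusted p = 0.0480). Of these only the snoRNA share passed without the 11 pools (6.13 points, exact permutation test, adjusted p = 0.0448). The snRNA share differed there by 4.99 points and the rRNA share by 3.61 points (adjusted p = 0.110 each, exact permutation test). With identical rows counted once none of the 3 passed, at 4.33 points for snRNA (adjusted p = 0.126), 7.26 points for snoRNA (adjusted p = 0.0575) and 0.290 points for rRNA (adjusted p = 0.723, permutation test for each). miRNAs made up 11.5% ± 3.75 of counts in FL and 8.66% ± 3.10 in HGC (adjusted p = 0.0915), and lncRNAs 11.6% ± 3.50 and 9.12% ± 2.59 (adjusted p = 0.0937).

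Against VGC the snRNA share was higher in FL by 5.97 points (permutation test, adjusted p = 0.0480) and the lncRNA share by 3.24 points (adjusted p = 0.0428), but the differences were 1.81 and 2.37 points without the 11 pools and passed no test, nor did they with identical rows counted once (3.44 and 2.78 points). The snoRNA share differed by 4.84 points (adjusted p = 0.0607), the miRNA share by 2.74 points (adjusted p = 0.0835) and the rRNA share by 1.03 points (p = 0.602, permutation test). Library FL 2, closest to spleen, had the highest snRNA share (33.7%) and snoRNA share (29.7%) of all FL libraries.

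The class of reads annotated as piRNAs was the other one that was lower in FL. piRNAs silence transposons in germ cells, and brown fat is not a tissue known for them. Their share was 2.28% ± 0.28 in FL, 3.26% ± 0.92 in HGC and 2.96% ± 0.45 in VGC (n = 10 each), with 10 of 10 FL libraries below either control mean. FL differed by -0.979 points from HGC (permutation test, adjusted p = 0.0072) and by -0.675 points from VGC (adjusted p = 0.0033), and by -1.02 and -0.727 points without the 11 pools (exact permutation test, adjusted p = 0.0448 for each). With identical rows counted once the differences were -3.08 points (permutation test, adjusted p = 0.00014) and -2.26 points (adjusted p = 0.000513). Those became -3.21 points (exact permutation test, adjusted p = 0.0336) and -1.88 points (adjusted p = 0.0707) without the pools, where only the first passed. Counting identical rows once removed 0.0369% of the piRNA counts and 80.5% of the tRNA counts, so the total behind these shares was smaller.

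Within the class, 28 of 548 tested piRNAs passed between FL and HGC in edgeR (5.11%), 26 lower and 2 higher in FL, and 14 passed without the 11 pools (2.87%), with 11 called in both fits. The 28 held 32.3% of the piRNA counts in FL, 58.0% in HGC and 49.4% in VGC. They were chosen by this test on the same libraries, so the smaller part in FL than in HGC was largely fixed by that choice. The count was 17 without FL 12, 16 without HGC 16, 54 without HGC 12, 50 without HGC 11, 46 without HGC 1 or HGC 2 and 45 without VGC 2. With identical rows counted once 46 passed (8.58%). The 2 higher ones were oocyte_piRNA3673 and piR-104408, at log2 fold changes of 1.497 and 1.54.

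Leading this class, oocyte_piRNA2739 ran from 242 through 988 to 1479 CPM in FL, from 1472 through 4221 to 8685 CPM in HGC and from 1276 through 1999 to 5557 CPM in VGC. As for oocyte_piRNA905, 9 of the FL libraries lay beneath the lowest HGC library. Its log2 fold change was -2.18 against HGC (SE 0.34, edgeR adjusted p = 5.45e-05), -2.07 without the 11 pools (adjusted p = 0.00248), and -1.26 against VGC, which did not pass (edgeR adjusted p = 0.182). The more abundant oocyte_piRNA905 ran from 12209 to 136959 CPM in FL and from 115708 to 492465 CPM in HGC, and differed by -1.69 (edgeR adjusted p = 0.00272, -1.46 without the pools with adjusted p = 0.0192). The values for oocyte_piRNA2286 were -2.05 and -1.79, and for oocyte_piRNA3467 -1.68 and -1.65, all past the threshold in both fits.

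The 26 lower piRNAs were set beside the tRNA isotypes across the libraries, and since both were lower in FL a high correlation was partly fixed by that choice. As a description over the same 30 libraries, with depth and class composition shared, the correlation of each with the closest of 23 tRNA isotypes had a median r of 0.813 and ranged from 0.345 to 0.998, with 4 over 0.9. For the 520 tested piRNAs that were not called the median was 0.584 and the highest 0.892. The highest of the 26 was oocyte_piRNA3488 with initiator methionine tRNA. For oocyte_piRNA905 it was 0.895 with valine and for oocyte_piRNA3467 0.911 with glycine. Whether reads of these rows came from tRNAs was not tested. No piRNA passed against VGC in edgeR (0% of 548, 40 at an unadjusted p under 0.05, and 2 in DESeq2).

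**Figure D5:**
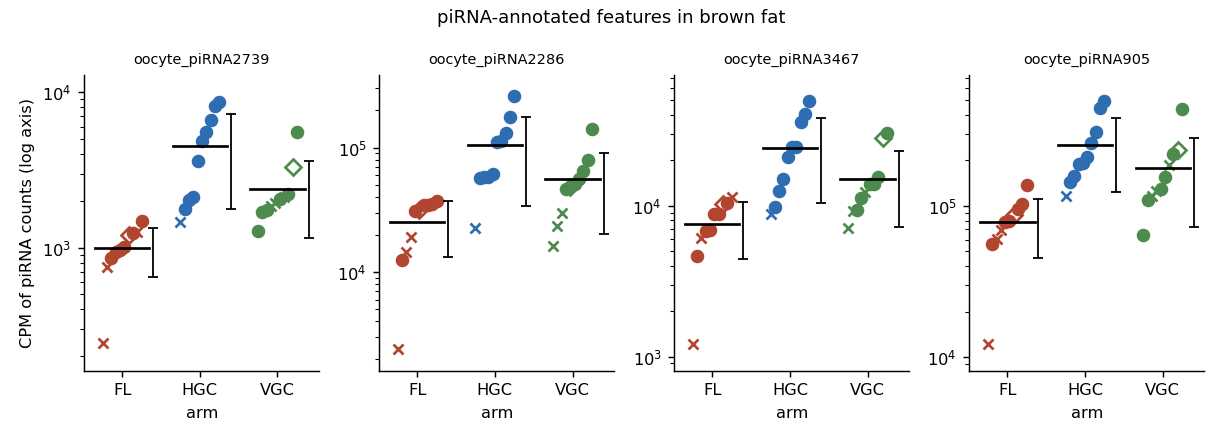
Level of the named piRNAs in each library (y, CPM of piRNA counts on a log axis) in FL, HGC and VGC (x). Symbols are as in the plot of tRNA share. For oocyte_piRNA2739 the FL libraries lie between 242 and 1479 CPM and the HGC libraries between 1472 and 8685 CPM.

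The 3 brown fat miRNAs did not pass the test in either comparison. Levels of single miRNAs are CPM after TMM scaling and can exceed the list sums given above, which were not scaled so. miR-378a-3p, the most abundant, had a lowest, median and highest value of 15238, 189478 and 372042 CPM in FL, 138432, 223006 and 330610 CPM in HGC and 56777, 162734 and 388309 CPM in VGC, and its log2 fold change was -0.28 against HGC (SE 0.40, edgeR adjusted p = 0.736) and 0.15 against VGC. The FL and HGC ranges overlapped over the whole HGC range. miR-193b-3p had values of 16.0, 2109.7 and 6836 CPM in FL, 954, 2306 and 6510.2 CPM in HGC and 303, 1786 and 6242 CPM in VGC, with log2 fold changes of -0.16 (SE 0.65, edgeR adjusted p = 0.903) and 0.14. For its cluster partner miR-365-3p, at 121, 10090 and 20830.3 CPM in FL and 4405, 8611 and 18631 CPM in HGC, they were -0.06 (SE 0.50, edgeR adjusted p = 0.958) and 0.23. In HGC the lowest values of all 3 lay far above the lowest in FL, and without the 11 pools the log2 fold changes against HGC of miR-378a-3p, miR-193b-3p and miR-365-3p were 0.13, 0.28 and 0.31, opposite in sign to those with all libraries.

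The larger lists held few calls, to be read beside the 7.62% of all miRNAs that passed between FL and HGC. Of 12 miRNAs reported to support brown or beige fat, 1 was higher in FL than in HGC (miR-196a-5p), and of 12 tested that are reported to restrain it none passed, among them miR-133a-3p (-0.43), miR-155-5p (0.67), miR-27b-3p (0.39) and miR-34a-5p (-0.36). Of 11 miRNAs of fat cell differentiation and insulin action, 2 were higher, miR-33-5p (1.49), which lies in the gene of a sterol regulator, and miR-21a-5p (1.72). The median log2 fold changes of these lists were -0.09, 0.00 and 0.20, against -0.01 over all 748 miRNAs tested. miR-196a-5p reached 747 CPM in FL 11 against an FL median of 5.10 CPM, miR-33-5p was highest in FL 2 and miR-21a-5p in FL 12. None of these passed without the 11 pools.

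Across the class, 57 of 748 miRNAs passed between FL and HGC in edgeR (7.62%), 28 higher and 29 lower in FL. The split depends on scaling here too, with 47 calls relative to all 7 classes, 42 higher and 5 lower, where the median over all miRNAs moved from -0.01 to 0.45 on the log2 scale. With the 11 pools left out 0 passed in edgeR, with 36 at an unadjusted p under 0.05. The count depended on single libraries and was 0 without FL 12, 20 without HGC 12, 24 without FL 2, 34 without FL 11 and 36 without FL 1. DESeq2 called 37, 27 higher and 10 lower, and edgeR 54 with identical rows counted once (7.31%). Against VGC 0 of 748 passed in edgeR (0%, 28 at an unadjusted p under 0.05) and 0 in DESeq2.

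The values by library are given for the leading miRNAs. miR-192-5p ran from 311 through 699 to 143578 CPM in FL, the highest being FL 12 and the next 8869 CPM, and from 418 through 546 to 692 CPM in HGC. Its log2 fold change of 4.82 (SE 1.05, edgeR adjusted p = 0.0226) was 1.48 without FL 12 (adjusted p = 0.114) and 0.28 without the 11 pools. miR-194-5p and miR-192-3p behaved alike, at 3.82 and 4.66 with all libraries and at 1.24 and 1.81 without FL 12, where neither passed. The hepatocyte miRNA miR-122-5p stood at 6.03 and reached 424352 CPM in FL 12 after TMM scaling (287175 CPM before that scaling). miR-101b-3p stood at 2.26, and at 0.42 without FL 12.

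Among miRNAs lower in FL, the neuronal miR-124-3p differed by -6.43 and stood at 42995 CPM in HGC 12, and it differed by -0.64 without that library. miR-3099-3p and miR-668-3p differed by -6.06 and -2.77, and by -0.72 and -1.04 without HGC 12. miR-3473e and miR-5126 were highest in HGC 16, in which miR-3473e stood at 4778 CPM with the next HGC library at 174 CPM. Their log2 fold changes of -3.24 and -4.69 became -0.87 and -0.40 without HGC 16, and neither passed (edgeR adjusted p = 0.0888 and 0.670). The calls of these 5 miRNAs also ended without FL 12, where the log2 fold changes stayed at -6.20, -5.89, -2.63, -3.33 and -4.71 in the order named (edgeR adjusted p = 0.0591 for each). HGC 16 had the brown fat profile, and it also had the highest tRNA share (67.2%).

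The MIR-17 family and its clusters, a list the study itself chose on samples of this series and so no independent evidence of direction, had 5 of 12 members higher in FL than in HGC, beside 7.62% of all miRNAs. miR-17-5p had a lowest, median and highest value of 487, 676 and 5393 CPM in FL and 353, 491 and 989.9 CPM in HGC, with FL 2 at the top. Its log2 fold change was 1.34 (edgeR adjusted p = 0.0418), and those of miR-18a-5p, miR-19b-3p, miR-20a-5p and miR-106a-5p were 1.59, 1.42, 1.47 and 3.33, each with its highest FL value in FL 2. The list's median was 1.38 with all libraries and 0.19 without the 11 pools, where no member passed, and 0.34 against VGC, where no member passed either.

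Other marker lists gave further calls between FL and HGC, to be read beside the 7.62% of all miRNAs that passed. These calls were absent without the 11 pools. Of 5 white blood cell miRNAs 2 were higher in FL (miR-142a-3p at 3.16 and miR-142a-5p at 2.13), as were 2 of 8 kidney and gut miRNAs, and of 5 brain miRNAs 2 were lower (miR-124-3p and miR-219a-2-3p, the latter at -7.19). No member of the muscle (7), pancreas (4), red cell (3), smooth muscle (2) or endothelial (2) lists passed. The part of these cell types in the miRNA differences was not tested beyond the fits without the libraries.

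Calls among small nucleolar RNAs rested on 1 library. Between FL and HGC 249 of 700 passed in edgeR (35.6%), 12 higher and 237 lower in FL, and 0 passed without HGC 12 alone, the library closest to brain. Relative to all 7 classes 373 passed, 176 higher and 197 lower, where the median over all snoRNAs moved from -0.44 to 0.33, and 0 without the pools. The leading rows Gm22111, Gm23687, Gm24566 and Gm26389 hold identical counts and stood at 973 CPM of the snoRNA counts in HGC 12, with the next HGC library at 3.76 CPM. Their log2 fold change was -5.81 (edgeR adjusted p = 0.00188) with all libraries and -0.58 without HGC 12. DESeq2 called 4 snoRNAs, and 113 passed in edgeR with identical rows counted once (20.9%). Against VGC 0 of 700 passed in edgeR (0%, 94 at an unadjusted p under 0.05, 0 in DESeq2), and 139 of 694 without HGC 12, a library of neither arm, and the cause was not tested.

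Scaled within the class and with the filter used here, the rRNA, snRNA and lncRNA classes gave no call in edgeR in either comparison. Against HGC 0 of 189 rRNAs (0%, 1 at an unadjusted p under 0.05), 0 of 716 snRNAs (99) and 0 of 2497 lncRNAs (226) passed, and DESeq2 called 0, 0 and 37 (all 37 lower in FL). Relative to all 7 classes 1 rRNA and 309 snRNAs passed against HGC, 308 of the latter higher in FL, and 81 rRNAs and 124 snRNAs without the pools, all higher. For lncRNAs edgeR called 47 with no filter, 4 higher and 43 lower, and 6 with its own filter, all lower. Against VGC the counts at an unadjusted p under 0.05 were 6, 85 and 118, with 0 calls by either tool. The rows with the smallest p against HGC included the snRNA Gm26110 (-2.77 against HGC, edgeR adjusted p = 0.140), which stood at 7495 CPM in HGC 16 with the next HGC library at 249.7 CPM, and the lncRNAs Mir670hg (-1.43, edgeR adjusted p = 0.114, highest in HGC 16) and Gm5464 (1.82, highest in FL 2). The 2 other leading snRNA rows, Gm23737 and Gm26232, were also highest in HGC 16. The leading rRNA row against HGC, Gm25974, stood at 1.70 (edgeR adjusted p = 0.207) with its highest value in FL 2, ahead of Gm23289 and Gm23821 (-0.74 and 0.89). These rows were near the floor, with mean levels of 1.66, 0.473 and 0.567 CPM of the rRNA counts in FL and 0.510, 0.760 and 0.279 CPM in HGC.

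The leading uncalled RNAs against VGC are given by their values. The snoRNAs Gm23262, Gm24920 and Gm25632 stood at 0.94, 0.68 and 0.67 (edgeR adjusted p = 0.263 for each), all highest in FL 2, and the lncRNAs Gm19656 and Gm40518 at 3.39 and 3.67, both highest in FL 3, a library with the brown fat profile. The rRNA rows n-R5s37 and Gm24647 stood at 1.14 and 1.78, near the floor at mean levels of 0.761 and 0.830 CPM in FL and 0.354 and 0.227 CPM in VGC. The snRNAs Gm26020, Gm22868 and Gm22381 stood at -1.10, -1.34 and -1.05, and the piRNAs oocyte_piRNA2645 and oocyte_piRNA1357 at 3.64 and -0.95. The first of these piRNAs was highest in FL 2 and stood at 0.87 without that library. Among miRNAs miR-192-5p, miR-194-5p and miR-101b-3p stood at 3.16, 2.66 and 1.84 (edgeR adjusted p = 0.772 for each), with FL 12 highest, and at -0.11, 0.13 and 0.006 without FL 12.

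The tRNA share was lower in FL than in HGC at both ages. FL was lower than HGC by 24.4 points in mice of 3 months (exact permutation test, p = 0.0159, 5 against 5) and by 18.5 points in mice of 8 months (exact permutation test, p = 0.0397), and these differed by 5.93 points (exact permutation of the ages within arms, p = 0.535). Against VGC the differences were -14.0 points (exact permutation test, p = 0.0556) and -20.3 points (exact permutation test, p = 0.0397), with p = 0.534 in the exact permutation test for the difference of -6.21 points. Without the 11 pools FL stood 20.4 points below HGC at 3 months (exact permutation test, p = 0.0238, 4 against 5) and 19.8 points below at 8 months (exact permutation test, p = 0.267, 2 against 4). The differences from VGC were then -4.25 points at 3 months (exact permutation test, p = 0.457, 4 against 3) and -12.2 points at 8 months (exact permutation test, p = 0.6, 2 against 3). An age by flight term called 0 miRNAs (96 at an unadjusted p under 0.05, 4 in DESeq2) and 0 tRNA genes (20 at an unadjusted p under 0.05, 0 in DESeq2) in edgeR, and 0 of each without the pools (45 and 10 at an unadjusted p under 0.05).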

How the data were processed

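Small RNA libraries of brown fat from the live-return experiment were analysed from 7 deposited count tables. For miRNAs the authors deposited estimated counts from miRMaster on miRBase entries (build GRCm39, per the labels), in which a multi-mapping read is shared out, and these were rounded to whole numbers here. For the other 6 classes (lncRNA, piRNA, rRNA, snoRNA, snRNA, tRNA) the authors deposited raw counts per annotated feature, and how these were counted is not given in the sources used here. Since genes with the same sequence hold the same counts, a read can be counted at each copy, which raises the share of multi-copy classes. Tables of circRNA and scaRNA were not used, no column of per-sample values stayed unmapped (0), and brown fat of mice killed in orbit was used for 1 side value only.

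Features reaching 5 reads in 10% of every arm's libraries were tested within their class on all 30 libraries with edgeR 4.0.16 (TMM, quasi-likelihood F test, R 4.3.3, limma 3.58.1), with Benjamini-Hochberg adjusted p under 0.05 over the class. Class shares and isotype levels (log2, pseudocount of 1 rpm) were compared with two-sided permutation tests, exact where a group was under 10 and otherwise with 100000 resamples (Python 3.11.15, numpy 2.4.6, pandas 2.3.3, scipy 1.17.1). Named RNAs are members of the lists, called isotypes and the 4 largest ones, and in each class the called features with the smallest p (up to 8 for miRNA and tRNA, 4 for the others, or 3 uncalled ones where none was called). Alternatives were DESeq2 1.42.0, other filters and scalings, a pseudocount of 10 rpm, the replicate block, terms for age and plate, omission of each library, of the 11 pools or of libraries with another tissue's profile, and a rule of fold and effect size like that of the study, applied to log2 rpm over 7 classes. Counting identical rows or anticodons once, and other scalings combined with omission of the pools, were chosen after seeing the data. So was omission of each library for single RNAs and for the snoRNA and piRNA calls. The edgeR step was tested on simulated data. Members and lists were chosen with earlier results of these data known. Total depth was 30.0 M to 93.2 M counts (M is 1000000).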

Additional observations from a re-analysis of the deposited data

Results flagged for a closer look

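Each group of 10 libraries behind a reported level was examined for a library that stands apart, by the gap of the highest or lowest library to its neighbour as a part of the group's whole range, on the log2 scale for levels. Of 102 groups 21 had such a library. The limit used passes about 1 in 20 independent groups by chance, and these groups share the same 30 libraries, so the 21 are not separate events.

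FL 2, the library closest to spleen, stood apart most often. It was highest for the snRNA share (gap 0.484 of the range) and the snoRNA share (0.490), and lowest for glutamate tRNAs (0.492), valine tRNAs (0.538), miR-365-3p (0.543) and the piRNAs oocyte_piRNA2739 (0.625), oocyte_piRNA2286 (0.602), oocyte_piRNA3467 (0.599) and oocyte_piRNA905 (0.628). Omission of 1 library, FL 2 among them, left the differences from HGC at -2.301 to -1.98 for oocyte_piRNA2739 and at -1.27 to -0.98 for valine tRNAs, on the log2 scale.

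HGC 16, a library with the brown fat profile, was highest for lysine tRNAs (0.474), arginine tRNAs (0.589), miR-3473e (0.669) and miR-5126 (0.663). HGC 12, closest to brain, was highest for miR-124-3p (0.686), miR-3099-3p (0.793) and the snoRNA Gm22111 (0.851). In VGC VGC 3, closest to pancreas, was highest for miR-3099-3p (0.484), and VGC 14 was lowest for lysine tRNAs (0.595) and initiator methionine tRNAs (0.733). FL 12, closest to liver, was highest for miR-194-5p (0.479), and HGC 3 had the highest lncRNA share of the HGC libraries (0.653, at 15.9% of counts).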

How the results depend on the processing

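Against HGC the tRNA share was lower in FL under every alternative run. Omission of 1 library gave -23.1 to -19.1 points against HGC and -18.9 to -14.7 points against VGC. Against VGC the difference no longer passed at -8.50 points without the 11 pools, -12.8 points without libraries of another profile, -4.90 points with identical rows once and -3.76 points with 1 row per anticodon, both without the pools. Omission of libraries of another profile carried the miRNA share past the threshold against HGC (4.49 points) and VGC (3.49 points). Calls on the other shares were lost in the settings that follow. Against HGC the rRNA share differed by 3.61 points without the pools, 0.290 with identical rows once and 0.545 with both, the snRNA share by 4.99, 4.48 (other profiles left out), 4.33 (identical rows once) and 2.57 (both), and the snoRNA share by 7.26 and 6.75 points with identical rows once, with all libraries and without the pools. Against VGC the rRNA share turned to -1.09 points with identical rows once, and no longer passed were the snRNA share at 1.81, 2.00, 3.44 and 0.568 points, the lncRNA share at 2.37, 3.53, 2.78 and 2.57, and the piRNA share at -1.88 with identical rows once without the pools.

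miRNA calls against HGC were 0 without the pools, without other profiles, with no filter, with an age or plate term, by the Wilcoxon test and without the pools under other scalings, 37 in DESeq2, 33 with filterByExpr and 13 by a rule of fold and effect size like that of the study, used here on rpm over 7 classes and this filter. Omission of 1 library gave 0 to 69. That rule called 1 miRNA against VGC, and DESeq2 called 4 for age by flight. tRNA calls against HGC were 112 without other profiles, 79 with identical rows once, 42 with those and without the pools, 46 with a plate term, 23 by that rule and 105 by the Wilcoxon test, and 63 to 217 without 1 library. Against VGC they were 0 without the pools, without other profiles, scaled to 7 classes, with identical rows once and by the Wilcoxon test, 13 in DESeq2, 14 with a plate term, 1 by that rule and 0 to 39 without 1 library. Scaling to 7 classes, which moves the median over all features against HGC from 0.016 to 0.38 (rRNA), from -0.14 to 0.75 (snRNA) and from -0.01 to 0.45 (miRNA) on the log2 scale, gave 1 rRNA and 309 snRNA calls, and 81 and 124 without the pools. snoRNA calls were 0 without the pools or other profiles, 4 in DESeq2 and 113 with identical rows once, and without 1 library 0 to 263 against HGC and 0 to 139 against VGC. piRNA calls against HGC were 14 without the pools, 15 without other profiles, 51 with filterByExpr, 46 with identical rows once, 14 with those and 8 scaled to 7 classes without the pools, and 16 to 54 without 1 library. Against VGC they were 2 in DESeq2 and 5 with no filter, and 0 in every omission, as for miRNAs. lncRNA calls against HGC were 37 in DESeq2, 47 with no filter and 6 with filterByExpr. Isotype calls against HGC were 1 without the pools, 4 without other profiles, 12 as a share of tRNA counts (each higher in FL) and 5 to 9 without 1 library, and against VGC 1 without the pools, 0 without other profiles, 9 with identical rows once, 1 with those without the pools, 0 as a share of tRNA counts without the pools and 0 to 5 without 1 library. The cause of these shifts was not tested.

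Mouse numbers repeat across the arms but belong to different animals, and same-numbered libraries did not all deviate together. For miRNAs the median r was 0.003 between FL and HGC (2 of 10 pairs over 0.1), -0.104 between FL and VGC (3 of 10) and -0.090 between HGC and VGC (2 of 10), and for tRNAs -0.027 (2 of 10), 0.011 (2 of 10) and 0.125 (5 of 10), with single pairs up to 0.597. With the mouse number as a replicate block, the tRNA share differed by -21.5 and -17.1 points (sign-flip permutation, p = 0.0039 for each), and calls against HGC were 0 for miRNAs and snoRNAs, 12 for piRNAs, 142 for tRNAs and 4 for isotypes, with 0 isotypes against VGC.

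Of single RNAs, miR-124-3p and Gm22111 turned to 0.43 and 0.56 when scaled to 7 classes without the pools. The markers turned sign against HGC without the pools, without other profiles, scaled to 7 classes, and scaled so without the pools: 0.28, 0.17, 0.29 and 0.75 for miR-193b-3p, 0.31, 0.24, 0.40 and 0.82 for miR-365-3p (0.039 with a plate term), and 0.13, 0.019, 0.23 and 0.70 for miR-378a-3p. Omission of 1 library gave -0.53 to 0.087, -0.31 to 0.089 and -0.49 to -0.14 against HGC and -0.22 to 0.47, -0.019 to 0.50 and -0.054 to 0.37 against VGC, where miR-193b-3p was -0.070 under the block.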

Other observations

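Relative to the tRNA counts alone, 12 of 23 isotypes were higher in FL than in HGC (arginine, asparagine, aspartate, glutamine, isoleucine, leucine, methionine, proline, suppressor, threonine, tryptophan and tyrosine) and none was lower, while against VGC aspartate and proline were higher. Of the 12, arginine, glutamine and methionine did not pass without the 11 pools, and neither aspartate nor proline passed against VGC there.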
